A study of Homo sapiens with 30 samples.

Results

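NELF-E, the RNA-binding subunit of the negative elongation factor, was depleted by siRNA in T47D cells, and gene expression was compared with that of cells given a control siRNA against luciferase. The comparison was defined by the siRNA labels and used the 3 siNELF-E and 3 siControl gene-level arrays. With the exon-level summaries of the same arrays, it covered 12 of the 30 samples of the series. T47D is an established human breast cancer cell line of luminal, oestrogen receptor-positive type. All cells, controls included, were transfected with 10 nM siRNA and received fresh medium after 48 h. They grew for a further 48 h before 1 ug of total RNA per sample was depleted of ribosomal RNA, labelled and hybridised to Affymetrix exon arrays. The series also depleted the subunits NELF-A, NELF-B and NELF-C, with 3 arrays each, and its text calls the 3 arrays of a condition technical repeats. Errors and p-values thus cover only how far repeat arrays scattered, which may be technical, in 1 cell line at 1 harvest time.

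NELF is a complex of 4 subunits that, with DSIF, holds RNA polymerase II shortly downstream of the start site of many genes. The kinase P-TEFb releases the polymerase by phosphorylating NELF, DSIF and the polymerase itself. In breast epithelial cells the NELF-B subunit is also known as a cofactor that binds the oestrogen receptor.

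Expression was given as log2 RMA values, a summary in which 1 unit is a 2-fold difference in signal. Each of 22011 transcript clusters, the array's gene-level units, has 1 value per array, and each of 287329 probe sets, which mostly cover single exons, has 1 in the exon-level table. Pairs of siControl arrays correlated at 0.9873 to 0.9895 and pairs of siNELF-E arrays at 0.987 to 0.9875, whereas the 3 siNELF-B arrays scattered, at 0.9172 to 0.9729. Array medians were 4.80 to 4.86 in siControl and 4.71 to 4.74 in siNELF-E. The 75th percentiles lay at 6.66 to 6.83 and 6.56 to 6.67, so the siNELF-E arrays were slightly dimmer in both respects.

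The luminal label of T47D held in both groups. The mean level of 19 luminal markers, among them KRT8, KRT18, GATA3 and FOXA1, was 8.69 to 8.81 in the siControl arrays and 9.04 to 9.13 in the siNELF-E arrays. Mesenchymal markers lay at 3.08 to 3.18 and 3.06 to 3.09, and 13 of the 18 were below the 40th percentile of cluster means, 3.90. Endothelial markers (3.01 to 3.20 and 3.10 to 3.23, 6 of 8 below) and leukocyte markers (2.76 to 2.91 and 2.82 to 2.95, 6 of 9 below) were equally low. The 6 basal markers with a cluster of their own lay higher, at 5.91 to 5.98 and 5.80 to 5.85, with 0 below the 40th percentile. Another 9 had only exon-level values. Among these KRT5, KRT17 and TP63 had mean medians of 3.6, 4.2 and 2.6 in siControl and 3.7, 4.2 and 3.3 in siNELF-E.

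The siRNA target was depleted. NELFE had no transcript cluster of its own with a single gene name, so its level was taken as the median of its 15 exon-level probe sets. It was 7.29, 7.22 and 7.27 in the siControl arrays and 4.66, 4.70 and 4.60 in the siNELF-E arrays. The groups were far apart and each varied little. The change was -2.61 (SE 0.198, limma with Benjamini-Hochberg adjusted p = 7.84e-06), a 6.1-fold fall that left 16.4% of the control signal.

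The fall was spread over the transcript. All 3 siNELF-E arrays lay below all 3 controls in 14 of the 15 NELFE probe sets, against 16.2% of all probe sets on the array. Changes ran from -4.71 in probe set 2948765 to -0.62 in probe set 2948772, the one in which the groups overlapped. Probe set 2948776, read at 9.38, 9.39 and 9.83 in the controls, gave 5.96, 5.96 and 6.22 after siNELF-E.

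The depletion separated siNELF-E from every other group of the series. NELFE stood at 7.98, 8.20 and 7.42 with siNELF-A, at 6.79, 7.18 and 6.52 with siNELF-B, and at 6.94, 6.65 and 6.71 with siNELF-C. The siNELF-E arrays were lower by limma than siNELF-A (difference -3.22, adjusted p = 5e-06), siNELF-B (-2.18, adjusted p = 0.000168) and siNELF-C (-2.12, adjusted p = 7.87e-05).

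**Figure D1:**
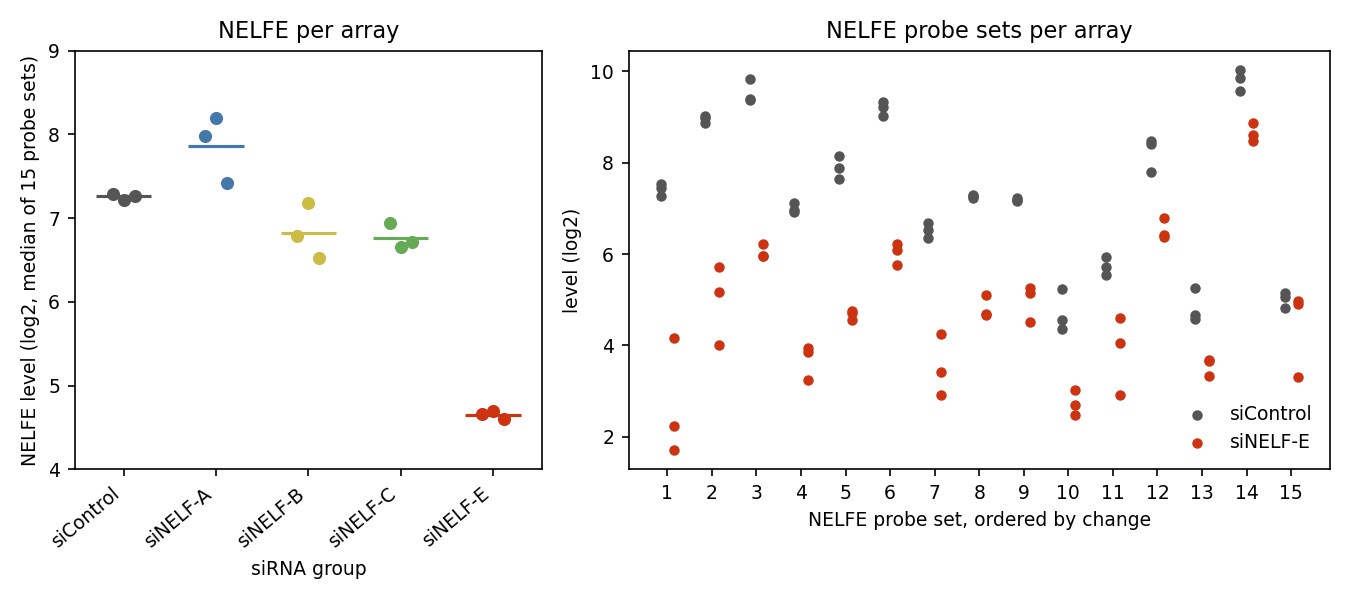
NELFE in the 15 arrays. Left, the median of 15 NELFE probe sets (log2, y axis) for each array of 5 siRNA groups, with lines at group means. Right, the level (log2) of each probe set in the 3 siControl (grey) and 3 siNELF-E (red) arrays, ordered by change. The siNELF-E medians lie at 4.60 to 4.70, below all other arrays, and only probe set 15 shows overlap.

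The other measured subunits did not pass the test. NELFCD, which encodes NELF-C and its variant NELF-D, read 9.33, 9.19 and 9.23 in the controls and 9.71, 9.55 and 9.67 with siNELF-E (change 0.39, limma adjusted p = 0.55). Its groups did not overlap. In 18 of 26 NELFCD probe sets all siNELF-E arrays lay above all controls, against 10% of all probe sets. NELFA read 6.24, 6.14 and 6.34 against 6.39, 6.07 and 6.55 by its exon-level median (0.10, adjusted p = 0.931). NELFB was not analysed here. The genes that lie close to NELFE in the class III region of the MHC did not pass either: DXO changed by 0.20, ZBTB12 by -0.13, SKIC2 by -0.26 EHMT2 by -0.28 and CFB by -0.30, with limma adjusted p between 0.336 and 0.886 and 0 of 5 past an unadjusted p of 0.05.

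A transcript cluster was called when limma gave a Benjamini-Hochberg adjusted p below 0.05 and a change of at least 1.5-fold. By this rule 1206 of 22011 clusters (5.48%) differed between siNELF-E and siControl, 317 higher (1.44%) and 889 lower (4.04%). All 1206 had 3 siNELF-E arrays beyond all 3 controls, which was also true of 34.6% of all clusters. Falls were deeper than rises: 141 clusters fell and 5 rose at least 4-fold, and 587 fell and 137 rose at least 2-fold. The median change of all clusters was -0.02.

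The size of these counts depended on which arrays shared the estimate of spread. Without the 3 scattered siNELF-B arrays 2348 clusters were called, and with the 6 arrays of the comparison alone 2393. Leaving out siNELF-B replicate 2 gave 1884 and replicate 3 gave 2086, whereas leaving out any one siNELF-E or siControl array lowered the count to between 691 and 819. The share of called clusters that were higher, 26.3%, became 41.4% after quantile normalization, 39.5% with arrays centred on their medians and 42.7% with arrays centred on their 75th percentiles. The last of these scalings moved the median change of all clusters to 0.113.

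**Figure D2:**
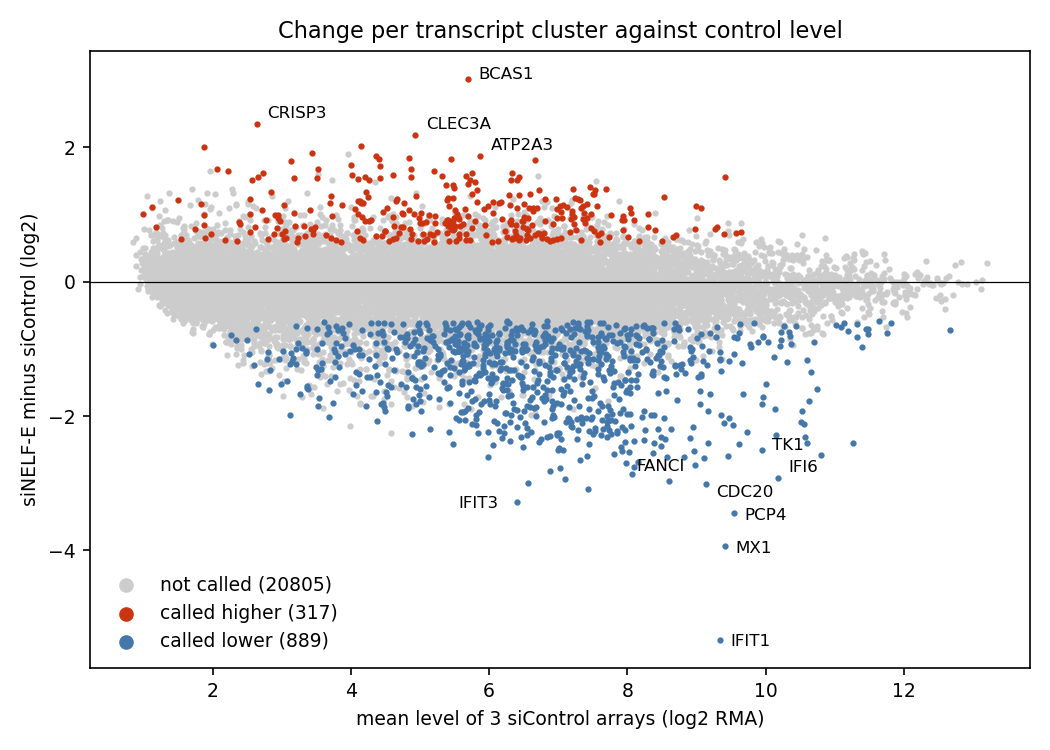
Change in each of 22011 transcript clusters (siNELF-E minus siControl, log2, y axis) against the mean level of the 3 siControl arrays (log2 RMA, x axis). Red points are the 317 clusters called higher and blue points the 889 called lower. The deepest falls, IFIT1 at -5.33 and MX1 at -3.94, are interferon-stimulated genes.

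The deepest falls were in interferon-stimulated genes, the antiviral and antiproliferative genes that type I interferon turns on. Of 43 measured interferon-stimulated effectors 22 were called lower (51.2%, against 4.04% of all clusters) and 0 higher, with a median change of -1.05. Without limma's adjustment, at p below 0.05, 34 were lower and 1 higher. IFIT1, IFIT3, OAS2, OAS3, MX1, IFI6 and IFITM1 are 7 of the 15 named genes with the deepest falls on the array.

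IFIT1, which binds viral RNA that lacks host cap methylation, read 9.25, 9.20 and 9.58 in the controls and 3.88, 4.04 and 4.13 with siNELF-E. Its signal fell 40.2-fold (change -5.33, SE 0.244, limma adjusted p = 1.86e-07). MX1, a dynamin-like GTPase that blocks virus replication, went from 9.32, 9.37 and 9.53 to 5.51, 5.61 and 5.28. In both genes the siNELF-E arrays lay far under every control, and MX1 fell 15.3-fold (-3.94, SE 0.229, adjusted p = 1.83e-06). IFIT3, a partner of IFIT1, read 6.37, 6.47 and 6.38 against 3.44, 3.25 and 2.71. Its fall was 9.67-fold (-3.27, SE 0.233, adjusted p = 5.22e-06).

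The oligoadenylate synthetases, which sense double-stranded RNA and activate RNase L, fell together. OAS2 went from 7.20, 6.98 and 7.11 to 3.89, 4.50 and 4.10, a 7.63-fold fall by limma (adjusted p = 6.46e-06), and OAS3 from 8.16, 7.98 and 8.06 to 5.06, 5.27 and 5.28, a 7.29-fold fall (adjusted p = 2.14e-06). OAS1 fell by 2.65 on the log2 scale. The mitochondrial protein gene IFI6 fell 7.58-fold, from 9.96, 10.25 and 10.35 to 7.03, 7.62 and 7.15. IFITM1, a membrane protein that hinders virus entry and has close paralogs, fell 7.05-fold, from 6.87, 6.52 and 7.23 to 3.88, 4.12 and 4.17. At the exon level 32 of 34 OAS3 probe sets, 25 of 26 OAS2 probe sets and 21 of 21 MX1 probe sets had all siNELF-E arrays below all controls.

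The response was uneven. ISG15, the ubiquitin-like modifier, read 5.15, 5.47 and 4.97 against 5.09, 4.71 and 4.67 (-0.37, limma adjusted p = 0.669), and its groups overlapped. RSAD2 and MX2 were not called and lay below the 40th percentile of cluster means in both groups. ADAR, an RNA-editing enzyme, was at -0.57 (limma adjusted p = 0.215). UBE2L6, the conjugating enzyme for ISG15, passed the p threshold but not the fold threshold (-0.51, adjusted p = 0.042).

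Among 23 genes of interferon sensing and signalling 7 were called lower (30.4%, against 4.04% of all clusters) and 0 higher, with a median of -0.40. IRF9, a DNA-binding factor of the interferon response, fell 4.62-fold, from 7.41, 7.05 and 7.38 to 5.17, 5.31 and 4.74 (SE 0.175, limma adjusted p = 1.13e-05). JAK1, the kinase of the receptor, fell 1.94-fold, from 10.09, 10.23 and 10.31 to 9.17, 9.24 and 9.35 (adjusted p = 0.0018), and the groups did not overlap. The receptor subunit IFNAR1 was at 0.12 (adjusted p = 0.949), and IFNAR2 was too dim for a fold. The RNA sensor RIGI fell by 1.05 on the log2 scale, and IFIH1 was called lower although both group means lay below the 40th percentile. The RIGI call was lost without any one of siNELF-E replicates 1, 2 and 3 or siControl replicates 1 and 3 (adjusted p 0.0566 to 0.124) and under the replicate block (0.0557), and the IFIH1 call without siNELF-E replicate 1 (0.0528) or siControl replicate 3 (0.0582). Of 14 class I antigen processing genes 1 was called lower (7.14%, against 4.04% of all clusters). This was HLA-F, at -0.81. Its call was lost without any one of the 6 arrays (limma adjusted p 0.0591 to 0.112), after quantile normalization (0.066) and after centring on the 75th percentile (0.0636). The list's lower count was 2 after quantile normalization, 3 without the siNELF-B arrays and 0 without any one siNELF-E or siControl array. Another 3 genes of the list had only exon-level values, and 1 of these was called lower. This was PSMB9, which fell 2.75-fold, from a mean of 7.31 to 5.85 (limma adjusted p = 0.00262).

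Promoter sequence was read from the RefSeq table (GRCh38.p14), as the 250 bases before the start site. The interferon-stimulated response element (ISRE) was searched as 2 copies of GAAA with any 2 bases between them, on both strands. It was present in 14 of 26 promoters of the called lower interferon genes (53.8%) and in 3.07% of all 27305 promoters of the table. The share was 2.54% among measured single-symbol genes and 4.03% among all called lower genes. IFIT1 and IFIT3 are shown because they fell deeply and each hold 2 matches, in capitals; both windows lie on the plus strand, at chr10:89392373-89392622 and chr10:89327747-89327996.
IFIT1: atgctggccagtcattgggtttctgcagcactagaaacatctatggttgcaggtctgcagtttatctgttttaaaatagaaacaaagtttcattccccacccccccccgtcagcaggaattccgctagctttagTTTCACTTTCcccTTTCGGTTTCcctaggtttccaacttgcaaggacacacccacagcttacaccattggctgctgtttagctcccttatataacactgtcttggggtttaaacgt
IFIT3: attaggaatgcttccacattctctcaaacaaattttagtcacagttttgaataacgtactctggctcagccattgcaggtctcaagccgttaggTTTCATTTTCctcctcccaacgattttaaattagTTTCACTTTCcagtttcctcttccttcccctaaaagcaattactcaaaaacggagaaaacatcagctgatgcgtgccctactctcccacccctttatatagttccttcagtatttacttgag
The capitals are the searched letters read from the opposite strand. In IFIT1 the matches begin at positions -116 and -103 from the start site, and in IFIT3 at -156 and -122. The window of MX1 holds no match to these letters. The matches describe the sequence and are not measured binding sites.

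Genes of mitosis fell as broadly as any group. Of 22 mitotic kinases and regulators of mitotic exit 19 were called lower (86.4%, against 4.04% of all clusters) and 0 higher, with a median of -2.04. CDC20, the activator that directs the anaphase-promoting complex to its mitotic targets, read 9.31, 9.10 and 9.0 in the controls and 5.88, 6.48 and 6.00 with siNELF-E. It fell 8.09-fold (-3.02, SE 0.282, limma adjusted p = 5.22e-05). PLK1, a kinase of mitotic entry and spindle assembly, fell 5.29-fold from 9.40, 9.02 and 9.07 to 6.57, 6.82 and 6.89 (adjusted p = 9.41e-05). PTTG1, the securin that restrains separase, fell from 10.66, 10.56 and 10.59 to 8.03, 8.63 and 7.95 (adjusted p = 1.13e-05). The checkpoint kinase gene BUB1 fell from 7.11, 7.21 and 7.49 to 4.67, 5.07 and 5.05, again with a wide gap between groups. FZR1, the other activator of the anaphase-promoting complex, was at -0.02 (adjusted p = 0.982).

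Kinetochore and spindle genes were called lower in 24 of 28 cases (85.7%, against 4.04% of all clusters), with 0 higher and a median of -2.12. DLGAP5, KIF14, NUF2, CENPI and NUSAP1, which serve spindle assembly, cytokinesis and the attachment of chromosomes, fell by 2.53, 2.37, 2.34, 2.33 and 2.32 on the log2 scale. HMMR, a spindle and hyaluronan-binding protein, fell from 6.69, 7.11 and 7.27 to 3.80, 4.55 and 4.39 (-2.77, SE 0.613, limma adjusted p = 0.0164). Its call was lost without siNELF-E replicate 1 (adjusted p = 0.0759) or 3 (0.0506) or siControl replicate 2 (0.0605) or 3 (0.0724). At the probe set level 18 of 20 HMMR probe sets lay wholly below the controls.

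Of 14 genes of condensin, cohesin and chromosome structure 11 were called lower (78.6%, against 4.04% of all clusters), with a median of -1.65. TOP2A, the topoisomerase that untangles sister chromatids, went from 9.02, 9.11 and 9.19 to 6.21, 6.63 and 6.59, a 6.19-fold fall (SE 0.346, limma adjusted p = 0.000589). MKI67, the proliferation marker that coats mitotic chromosomes, fell 6.06-fold from 7.41, 7.29 and 7.55 to 4.75, 4.74 and 4.97 (adjusted p = 0.00112). STAG2 (0.30) and NCAPH2 (-0.50) were not called. The list's count dropped to 7 without siNELF-E replicate 1 or 3 or any one siControl replicate.

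The cell cycle genes homology region (CHR), searched as TTTGAA on both strands, is a short element of late cell cycle promoters. It was present in 19 of 46 promoters (41.3%) of the called lower mitosis and chromosome genes and in 13.6% of all promoters in the table. CCAAT boxes, searched as CCAAT, were present in 63.0% and 33.0%. Among measured single-symbol genes the CHR and CCAAT shares were 10.4% and 34.7%, and among all called lower genes 15.1% and 45.0%. CDC20 and HMMR are shown with their CHR matches in capitals, from chr1:43358731-43358980 and chr5:163460382-163460631, both on the plus strand of GRCh38.p14.
CDC20: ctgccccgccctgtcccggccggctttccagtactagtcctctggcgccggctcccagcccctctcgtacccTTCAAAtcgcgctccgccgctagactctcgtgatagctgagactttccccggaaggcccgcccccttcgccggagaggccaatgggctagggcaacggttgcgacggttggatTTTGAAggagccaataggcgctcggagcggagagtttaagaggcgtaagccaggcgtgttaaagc
HMMR: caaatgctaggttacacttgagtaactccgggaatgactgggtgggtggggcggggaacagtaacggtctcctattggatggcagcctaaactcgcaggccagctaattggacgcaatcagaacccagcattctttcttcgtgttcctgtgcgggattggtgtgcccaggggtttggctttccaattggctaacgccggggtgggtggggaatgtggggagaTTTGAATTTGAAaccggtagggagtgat
In CDC20 the matches begin at positions -178 and -65 from the start site and the farther one reads on the opposite strand. In HMMR they adjoin each other, beginning at -28 and -22.

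Genes of DNA replication fell next. Of 44 genes of origin licensing and the replication fork 32 were called lower (72.7%, against 4.04% of all clusters) and 0 higher, with a median of -1.40. DTL, which targets the licensing factor CDT1 for destruction, fell 6.07-fold from 8.73, 8.81 and 8.90 to 5.90, 6.42 and 6.31 (SE 0.308, limma adjusted p = 0.000269). CDC6, which loads the MCM helicase, fell 5.28-fold from 8.37, 8.37 and 8.42 to 5.64, 6.17 and 6.14 (adjusted p = 0.00275). The helicase subunit MCM5 fell 4.18-fold from 7.87, 7.64 and 7.77 to 5.62, 5.73 and 5.74 (adjusted p = 8.24e-05). By the exon-level median PCNA, the sliding clamp, fell 2.58-fold (adjusted p = 0.0327). RPA1, of the single-strand binding complex, was at -0.79 and not called (adjusted p = 0.14).

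Deoxynucleotide synthesis was called lower in 4 of 8 genes (50%, against 4.04% of all clusters). It was called lower in 7 in the fits without the siNELF-B arrays or without siNELF-B replicate 2. TK1, the S-phase thymidine kinase, went from 10.03, 9.89 and 9.93 to 7.26, 7.63 and 7.42, a 5.7-fold fall (SE 0.189, limma adjusted p = 7.95e-06). TYMS, thymidylate synthase, fell 5.22-fold and RRM2, the S-phase subunit of ribonucleotide reductase, 4.97-fold. RRM2B, the p53-induced counterpart of RRM2, was at -0.41 (adjusted p = 0.647).

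The Fanconi anaemia and homologous recombination list, which repairs cross-links and broken forks, had 18 of 23 genes called lower, with a median of -1.19. This was 78.3%, against 4.04% of all clusters. FANCI fell 6.46-fold, from 7.98, 7.93 and 8.03 to 4.96, 5.59 and 5.31 (SE 0.328, limma adjusted p = 0.000322), and 43 of its 44 probe sets lay below all controls. BRCA1 went from 6.19, 6.09 and 6.35 to 3.80, 4.05 and 4.02 (-2.25, adjusted p = 0.00154). BRCA2 fell by 2.45 on the log2 scale by its exon-level median (adjusted p = 0.000207). NBN, a part of the break-sensing MRN complex, was at -0.03 (adjusted p = 0.989) and PALB2 at -0.42 (adjusted p = 0.534).

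An E2F element was searched as TTTNNCGC on both strands. It was found in 13 of 48 promoters (27.1%) of the called lower replication and repair genes and in 5.93% of all promoters. The share was 7.66% among measured single-symbol genes and 12.6% among all called lower genes. CCAAT boxes were present in 54.2% of the replication and repair promoters and in 45.0% of those of all called lower genes. Whether these shares relate to the falls was not tested. DTL is shown because it fell most in the replication list; its match in capitals begins at position -8 from the start site, in chr1:212035498-212035747 on the plus strand of GRCh38.p14.
DTL: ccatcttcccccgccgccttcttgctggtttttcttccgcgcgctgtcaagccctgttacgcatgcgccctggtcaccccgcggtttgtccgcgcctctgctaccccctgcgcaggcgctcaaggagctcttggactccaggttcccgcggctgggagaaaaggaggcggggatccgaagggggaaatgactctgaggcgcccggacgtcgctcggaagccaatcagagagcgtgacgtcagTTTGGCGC
Its window also holds a CCAAT box and no CHR letters.

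Some transcription factors of the cell cycle and relatives of RB were lower too, and whether this had a part in the other falls was not tested. FOXM1, the activator of late cell cycle genes, fell 6.4-fold from 8.27, 8.02 and 8.17 to 5.31, 5.56 and 5.56 (-2.68, SE 0.296, limma adjusted p = 0.000178). MYBL2, its partner at CHR promoters, fell 5.03-fold from 9.01, 8.85 and 8.88 to 6.54, 6.71 and 6.49 (adjusted p = 3.44e-06). The RB relative RBL1 fell from 6.52, 6.46 and 6.69 to 4.70, 4.85 and 4.58 (adjusted p = 0.00505). E2F7 and E2F8, repressors that E2F itself induces, fell by 1.96 and 1.49 on the log2 scale. E2F4, the repressor E2F of resting cells, was at 0.23 (adjusted p = 0.758). In all, 7 of 15 such factors and RB relatives were called lower (46.7%, against 4.04% of all clusters) and 0 higher.

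Of 9 cyclins and kinases of interphase 6 were called lower (66.7%, against 4.04% of all clusters). CCNA2, cyclin A2 of S phase and G2, fell 5.45-fold, from 8.30, 8.47 and 8.70 to 5.62, 6.15 and 6.36 (SE 0.289, limma adjusted p = 0.000269). CCND1, cyclin D1, which couples growth signals and oestrogen to the cycle, fell 2.36-fold from 8.81, 8.54 and 8.71 to 7.45, 7.29 and 7.60 (adjusted p = 0.00066). CDK2 fell 2.68-fold (adjusted p = 0.00225). CCNE1, cyclin E1, was at -0.45 (adjusted p = 0.475).

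Among CDK inhibitors 2 rose and 1 fell. CDKN1A (p21) read 6.49, 6.51 and 6.47 in the controls and 7.31, 7.45 and 7.42 with siNELF-E, and CDKN2B (p15) 5.62, 5.41 and 5.45 against 6.48, 6.38 and 6.48. Both groups were clear of each other, and the rises were 1.87-fold (SE 0.149, limma adjusted p = 0.00269) and 1.94-fold (SE 0.136, adjusted p = 0.00101), against 1.44% of all clusters called higher. CDKN1B, CDKN1C, CDKN2A and CDKN2D ran from -0.31 to 0.33 and were not called. CDKN2C (p18) had no cluster of its own and fell 3.99-fold by its exon-level median, from 5.96, 5.95 and 6.30 to 3.94, 3.72 and 4.54 (adjusted p = 0.00299).

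Replication-dependent histones, made in S phase, were called lower in 20 of 42 clusters (47.6%, against 4.04% of all clusters), with a median of -1.26. H4C3 fell from 9.46, 9.60 and 9.77 to 6.52, 7.67 and 7.39 (limma adjusted p = 0.00112), and H1-5 from 9.50, 9.44 and 9.63 to 7.31, 7.61 and 7.26 (adjusted p = 0.000816). H2AC6 (-0.28) and H4C8 (-0.06) were not called. Histone genes are near-identical copies, so probes may be shared and single members are uncertain.

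**Figure D3:**
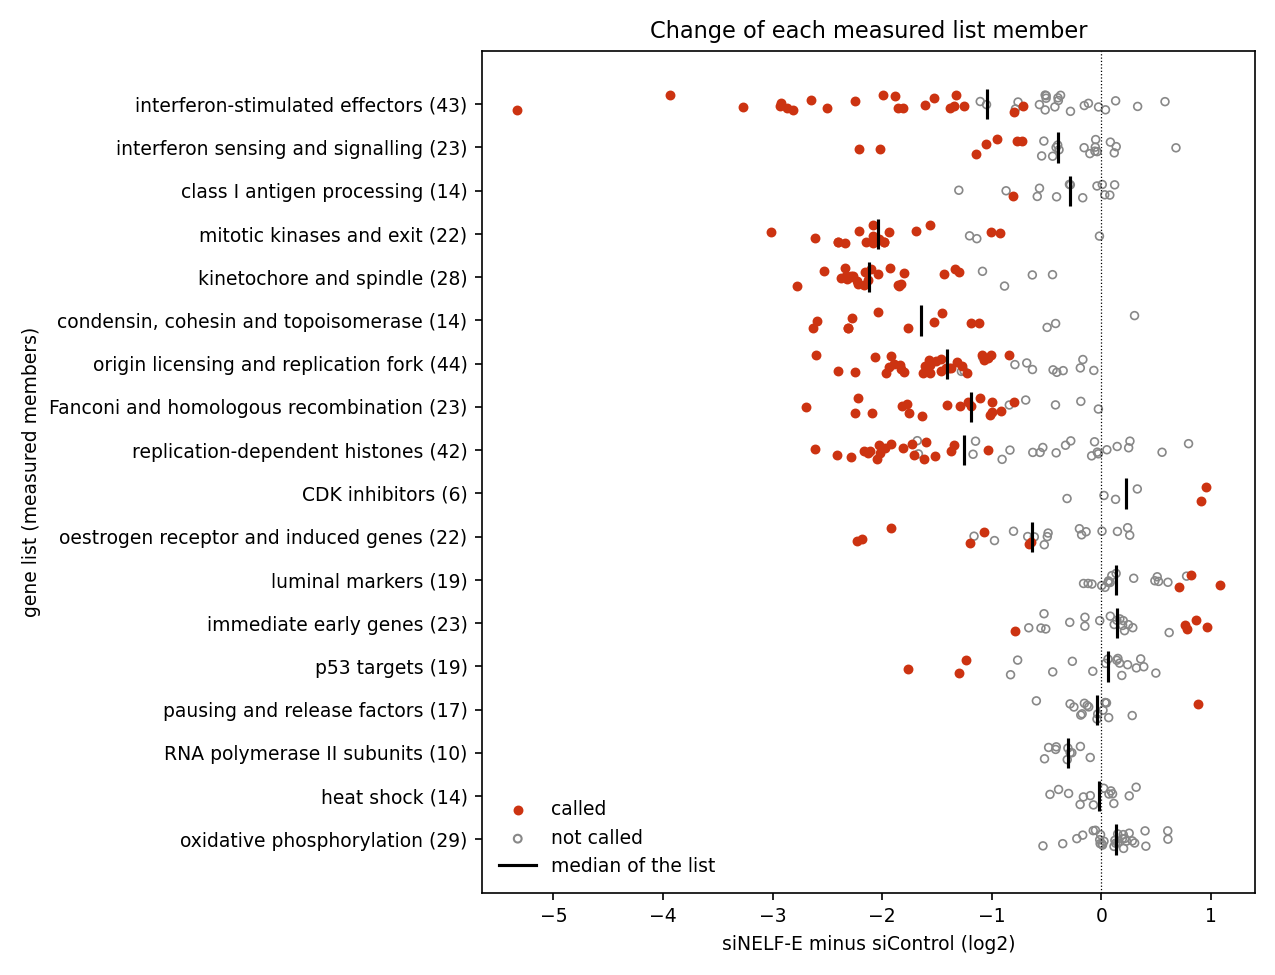
Change (siNELF-E minus siControl, log2, x axis) of every measured member of 18 gene lists (y axis, with the number measured). Filled points were called, open points were not, and bars mark list medians. Mitosis and replication lists lie to the left, with medians to -2.12, as do interferon-stimulated effectors, at -1.05. Interferon sensing and signalling (-0.40) and RNA polymerase II subunits (-0.31) have smaller shifts. Heat shock and oxidative phosphorylation medians are -0.03 and 0.13.

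Oestrogen receptor signalling is the growth pathway for which this cell line is best known. Of 22 measured genes, the receptor and genes it induces, 7 were called lower (31.8%, against 4.04% of all clusters) and 0 higher. The median was -0.63. Without the siNELF-B arrays 12 were called lower, and 10 without siNELF-B replicate 2 or 12 without replicate 3. ESR1 itself went from 7.72, 7.63 and 7.71 to 6.56, 6.61 and 6.69, a 2.1-fold fall (SE 0.181, limma adjusted p = 0.0033). STC2, a secreted glycoprotein, fell 4.69-fold, from 9.64, 9.70 and 9.85 to 7.39, 7.33 and 7.77 (adjusted p = 0.000387). RERG, a small GTPase that restrains growth, fell 4.55-fold (adjusted p = 0.000359) and the chemokine CXCL12 3.78-fold (adjusted p = 5.9e-05).

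PDZK1, a scaffold protein, had only exon-level values and fell 6.66-fold, from 9.56, 9.95 and 10.05 to 6.84, 7.32 and 7.19 (limma adjusted p = 0.00017). Classic targets were lower without passing the test: PGR, the progesterone receptor, was at -0.67 (adjusted p = 0.185), GREB1 at -0.52 (0.259) and TFF1 at -0.80 (0.142). XBP1 was at -0.20 (adjusted p = 0.534).

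Luminal identity genes did not follow the receptor. KRT8, GATA3 and FOXA1 changed by 0.06, -0.12 and 0.06, with limma adjusted p of 0.909, 0.897 and 0.917. KRT7 (1.08), SPDEF (0.82) and ERBB2 (0.70) were called higher, 3 of 19 (15.8%, against 1.44% of all clusters). The KRT7 call was lost without any one of the 6 arrays (adjusted p 0.0931 to 0.155), without siNELF-B replicate 1 (0.0593), under the trended and robust spread (0.0512) and under the replicate block (0.0566). The SPDEF call was likewise lost without any one of the 6 arrays (0.0501 to 0.14). The ERBB2 call was lost without any one of siNELF-E replicates 1, 2 and 3 or siControl replicates 2 and 3 (0.0549 to 0.096). After quantile normalization or centring on the 75th percentile 8 luminal markers were called higher, and no setting called one lower. Of 6 basal markers 1 was called higher (16.7%), TRIM29 (0.98, limma adjusted p = 0.000978). Of 18 mesenchymal markers 1 was called lower (5.56%, against 4.04% of all clusters), FN1 (-1.25, adjusted p = 0.0234). The FN1 call was lost without any one of the 6 arrays (0.0559 to 0.105).

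The highest rise was that of BCAS1, a gene amplified in some breast cancers. It read 5.69, 5.61 and 5.78 in the controls and 8.76, 8.67 and 8.71 with siNELF-E, an 8.12-fold rise (3.02, SE 0.2, limma adjusted p = 3.44e-06), with all 12 of its probe sets above all controls. CRISP3, a secreted cysteine-rich protein, was low in the controls, at 2.26, 2.32 and 3.34, and reached 4.71, 5.20 and 5.04 (2.34, adjusted p = 0.00159). The lectin-like gene CLEC3A went from 5.20, 4.60 and 4.99 to 7.12, 7.22 and 6.99 (4.53-fold, adjusted p = 4.78e-05). ATP2A3, the SERCA3 calcium pump, rose 3.66-fold from 6.03, 5.80 and 5.78 to 7.77, 7.68 and 7.79 (adjusted p = 6.13e-06), in 30 of its 31 probe sets.

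Other genes among the 15 highest have no single theme. NDRG1, a stress- and differentiation-induced gene, rose 3.56-fold from 4.52, 4.44 and 4.26 to 6.26, 6.34 and 6.11 (limma adjusted p = 5.22e-06). FBXO32, a ubiquitin ligase subunit known from muscle atrophy, rose 3.56-fold (adjusted p = 0.00746), and the microtubule protein gene MAP2 3.59-fold (adjusted p = 0.000525). SRARP, a steroid receptor-associated protein, rose 3.65-fold, from 4.42, 4.17 and 4.50 to 5.97, 6.66 and 6.07 (adjusted p = 0.000851). Hemopexin (HPX, 1.74), ACKR2 (1.73), MDGA2 (1.68) and EPHX2 (1.67) rose in the same range. GATM (2.02), which makes the creatine precursor, lost its call without siNELF-E replicate 3 (adjusted p = 0.0573) or siControl replicate 2 (0.0557), and OR1E1 (1.79), an olfactory receptor gene, lost its call without siNELF-E replicate 1 or 3 or siControl replicate 2 or 3 (0.0974 to 0.128).

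PCP4, LRRN3, KPNA2 and PRR11 were the members of the 15 deepest falls outside the interferon and cell cycle lists. PCP4, a small calmodulin-binding protein, fell 10.9-fold, from 9.68, 9.48 and 9.47 to 6.29, 6.09 and 5.90 (SE 0.154, limma adjusted p = 1.86e-07). LRRN3, a leucine-rich repeat membrane protein, fell 7.82-fold, from 8.49, 8.61 and 8.71 to 5.05, 5.85 and 6.01 (adjusted p = 0.000148). KPNA2, an importin, was unsteady: its cluster read 6.49, 6.09 and 7.12 against 2.10, 3.78 and 4.82 (-3.0, SE 0.737, adjusted p = 0.0305). The KPNA2 call was lost without siNELF-E replicate 1 or 2 or any one siControl replicate (0.0607 to 0.133) and under the replicate block (0.0572), while the median of its 27 probe sets changed by -1.17. PRR11 fell by 2.76 on the log2 scale, in 13 of its 13 probe sets.

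Beyond the target, few genes of the polymerase pausing machinery passed the test. Of 17 measured pausing and release factors limma called 1 higher (5.88%, against 1.44% of all clusters) and 0 lower. This was ELL2, a subunit of the super elongation complex, which went from 4.87, 5.02 and 5.11 to 6.04, 5.91 and 5.69 (1.84-fold, SE 0.153, limma adjusted p = 0.00399). In the list 2 were higher and 0 lower at an unadjusted p below 0.05. Without the siNELF-B arrays 1 was called lower and 1 higher. SUPT5H and SUPT4H1, the DSIF subunits, both changed by 0.03, HEXIM1 by -0.16 and CCNT1, the P-TEFb cyclin, by -0.59 (adjusted p = 0.627). In 11 of 13 CCNT1 probe sets all siNELF-E arrays lay below all controls, against 16.2% of all probe sets. Limma called 0 of 6 factors with only exon-level values. Among these were CDK9 (-0.44, adjusted p = 0.511), CCNK (-0.45, 0.56) and ELL3 (0.74, 0.0712). Of 10 RNA polymerase II subunits limma called 0, with 1 lower at an unadjusted p below 0.05, and changes ran from -0.52 to -0.10.

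Many immediate early genes are controlled by paused polymerase. Of 23 measured 4 were called higher (17.4%, against 1.44% of all clusters) and 1 lower (4.35%, near the 4.04% of all clusters). KLF4 went from 4.51, 4.54 and 4.77 to 5.38, 5.57 and 5.76 (1.95-fold, limma adjusted p = 0.0092). NR4A1, an orphan nuclear receptor, rose 1.72-fold (adjusted p = 0.00301), as did the AP-1 gene JUND, 1.7-fold (adjusted p = 0.0047). JUNB rose by 0.86 on the log2 scale, and its call was lost without any one of siNELF-E replicates 1, 2 and 3 or siControl replicates 2 and 3 (0.0687 to 0.114), after quantile normalization (0.0571) and after centring on the 75th percentile (0.0519). IER3 fell 1.72-fold, from 7.95, 7.44 and 7.80 to 7.0, 6.88 and 6.95 (adjusted p = 0.00894). FOS (-0.29), EGR1 (-0.15) and MYC (-0.51, adjusted p = 0.144) were not called.

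Heat shock, respiratory and inflammatory genes were not called, while some p53 targets fell. Limma called 0 of 14 heat shock genes (1 lower and 0 higher at an unadjusted p below 0.05) and 0 of 29 oxidative phosphorylation genes (1 lower and 3 higher). It called 0 of 20 NF-kB and inflammatory genes (1 lower and 2 higher). Of 19 p53 targets other than CDKN1A, 3 were lower (15.8%, against 4.04% of all clusters) and 0 higher, or 5 lower without the siNELF-B arrays or without siNELF-B replicate 3: TP53I3 fell 3.4-fold, from 10.61, 10.66 and 10.60 to 8.90, 8.96 and 8.71 (limma adjusted p = 0.00013), FAS 2.47-fold and DDB2 2.35-fold, while MDM2 was at -0.44 (adjusted p = 0.677). In the unfolded protein and ATF4 list 2 of 20 were lower (10%, against 4.04% of all clusters), and 1 without any one siNELF-E or siControl array. PHGDH, of serine synthesis, fell 2.64-fold (limma adjusted p = 0.00189). In the proteasome list 2 of 24 were lower (8.33%, against the same 4.04%), and 0 to 1 without any one of those arrays.

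Direct contrasts with siNELF-A and siNELF-C, both of which use the same siNELF-E arrays, gave where NELF-E depletion stood apart. Against siNELF-A 891 clusters were called (4.05%), 564 higher and 327 lower (1.49%), and against siNELF-C 1141 (5.18%), 790 higher and 351 lower (1.59%). The counts without the siNELF-B arrays were 2129 and 2846. The 75th percentiles of the siNELF-A arrays, 6.39 to 6.60, and of the siNELF-C arrays, 6.32 to 6.43, were below those of siNELF-E.

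Many mitotic kinases and exit regulators were lower with siNELF-E than with siNELF-A or siNELF-C, while siNELF-B was left out of this comparison. Of 22 such genes 14 were called lower than in siNELF-A and 10 lower than in siNELF-C, with 0 higher in either. Over all clusters the lower shares in these contrasts were 1.49% and 1.59%. The median difference was -1.30 and -0.79. In CDC20 siNELF-E lay below siNELF-A by 1.90 (limma adjusted p = 0.00204) and below siNELF-C by 1.84 (adjusted p = 0.00246). In the replication list 18 of 44 were lower than in siNELF-A and 4 lower than in siNELF-C, and in the kinetochore list 6 and 1 of 28. FANCI differed from siNELF-A by -1.57 (adjusted p = 0.0157) and from siNELF-C by -1.03, which was not called (adjusted p = 0.0948).

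Interferon genes stood apart much less. Of the 43 effectors 1 was called lower than in siNELF-A, IFIT1 (-1.09, limma adjusted p = 0.0233), and 5 higher, MX2, PARP14, PARP9, DTX3L and OAS2 (2.56% of all clusters were called higher in this contrast). Against siNELF-C 1 was lower, XAF1, and 0 higher; the median differences over the list were 0.07 and 0.04. MX1 differed from siNELF-A by -0.15 and from siNELF-C by -0.17, and IFI6 by 0.14 and 0.35, with adjusted p between 0.31 and 0.854. Changes against the common controls, which these comparisons share, were -5.33, -4.24 and -5.02 for IFIT1 with siNELF-E, siNELF-A and siNELF-C, and -3.94, -3.79 and -3.77 for MX1.

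In all, 82 clusters were lower and 102 higher with siNELF-E than with siControl, siNELF-A and siNELF-C alike. PCP4 lay below siNELF-A by 3.50 (limma adjusted p = 2.26e-07) and below siNELF-C by 2.28 (adjusted p = 1.35e-05). TNNC1, the slow-muscle and cardiac troponin C, went from 6.05, 5.99 and 6.30 in the controls to 3.91, 4.13 and 3.99, and was lower than in siNELF-A by 2.87 and in siNELF-C by 2.44. In the siNELF-B arrays, which the rule did not use, TNNC1 was lower still, at 3.62, 3.69 and 3.42, and PCP4 read 7.59, 8.10 and 7.53. SDC2, a cell surface proteoglycan, and GPR158, an orphan receptor, followed, the latter falling from 6.54, 6.43 and 6.49 to 4.05, 3.86 and 4.16. With siNELF-B GPR158 read 5.35, 5.85 and 5.19, also below the controls. TK1, CDC6, CDC20 and the histone gene H2AC21 were the other 4 of the 8 lowest.

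The 8 that were highest by the same rule were CRISP3, BCHE, ATP2A3, SRARP, GATM, ACKR2, EPHX2 and SELENOP. CRISP3 and BCHE met the level limit only through their siNELF-E means, as their control means were 2.64 and 3.44. BCHE, butyrylcholinesterase, read 3.23, 3.28 and 3.81 in the controls and 5.21, 5.41 and 5.45 with siNELF-E, and was higher than in siNELF-A by 2.36 and in siNELF-C by 2.59 (limma adjusted p = 0.00347 and 0.00199). ATP2A3 differed by 2.02 and 2.0. In the siNELF-B arrays, which the rule did not use, ATP2A3 read 6.63, 6.88 and 6.42, also above all 3 controls. CRISP3 read 3.55, 4.43 and 2.81 there. ACKR2, a scavenging chemokine receptor, went from 4.51, 4.46 and 4.31 to 5.96, 6.31 and 6.20, above both knockdowns by 2.12 and 1.82. SELENOP, the selenium carrier, rose against the controls by 1.62 (adjusted p = 0.0224), a call lost without any one of the 6 arrays (0.0563 to 0.0979). Opposite cases exist: MAP2 differed from siNELF-C by 0.05 and CLEC3A by 0.30, neither called.

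**Figure D4:**
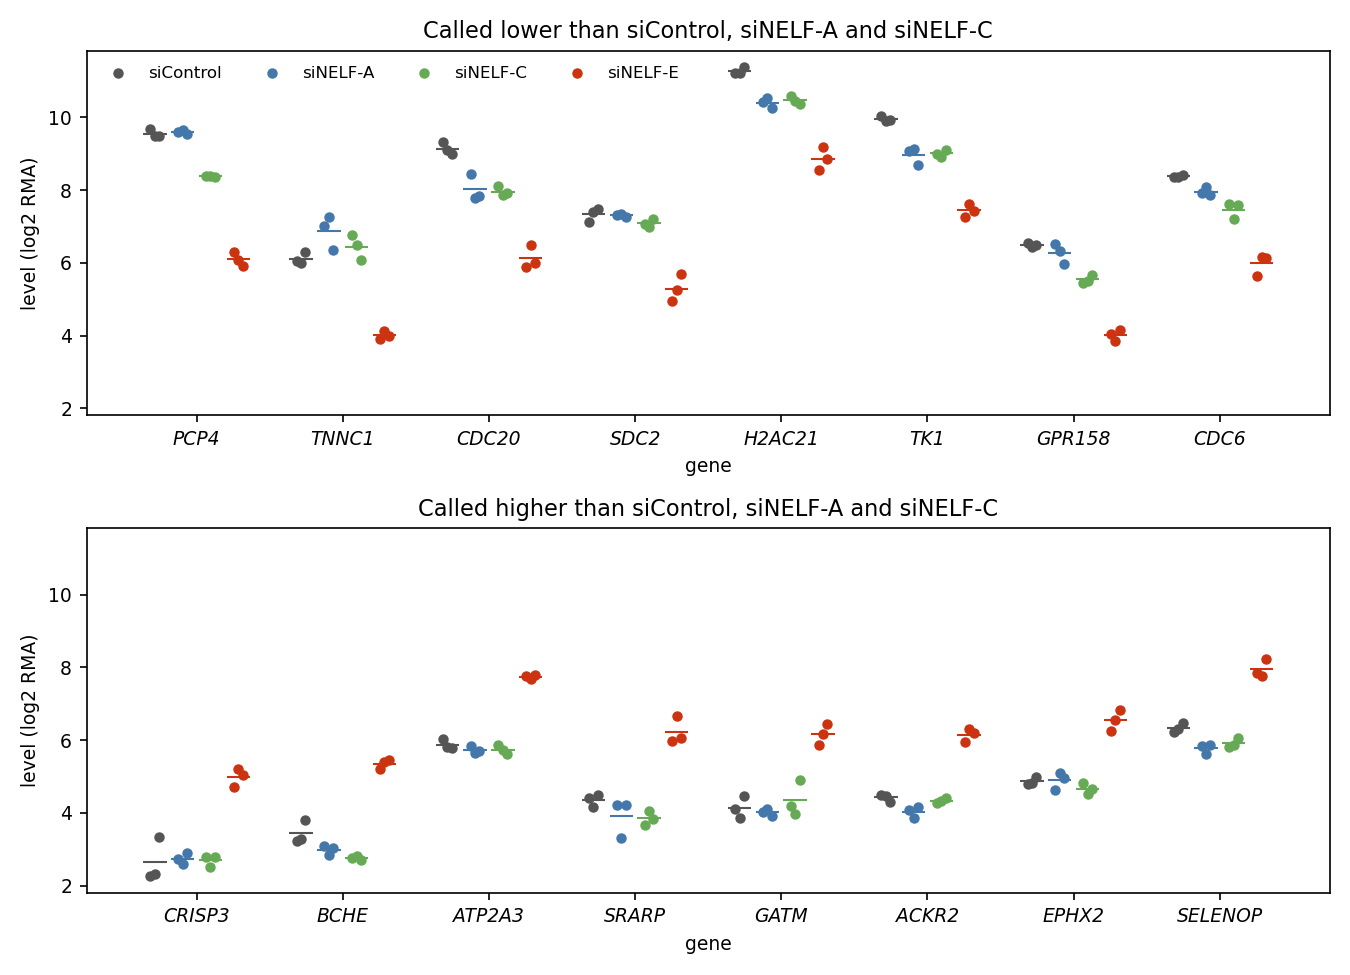
Levels (log2 RMA, y axis) of 16 genes (x axis) in each of the 3 arrays of siControl, siNELF-A, siNELF-C and siNELF-E, with short lines at group means. Top, the 8 genes lowest with siNELF-E and bottom the 8 highest, chosen by being called the same way against the 3 other groups shown. The siNELF-B arrays took no part in the choice and are not shown. The siNELF-E arrays of PCP4 lie at 5.90 to 6.29, below siNELF-C, which itself lies below the control.

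The exon-level values are a second summary of the same arrays, by their titles, so they are not independent of the gene-level calls. They carried the same direction for most calls. Fitted by limma on per-gene medians of probe sets, 723 of 16909 genes were called (4.28%), 162 higher (0.958%) and 561 lower (3.32%). Of 13826 genes measured both ways, 675 were called lower at the gene level, 409 of them also by exon medians, and 258 were called higher, 116 of them also by exon medians. No gene was called in opposite directions, though 5 with a gene-level call had an exon median of opposite sign.

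The study's title names alternative transcription initiation, so probe sets were compared with the rest of their gene. Of 154460 probe sets in 9839 genes 202 (0.131%) changed relative to their gene by at least 1.5-fold at limma diffSplice adjusted p below 0.05, 114 upward (0.0738%) and 88 downward (0.057%), in 168 genes. Of these genes 80 were also called at the gene level. The count was 2784 with the 6 arrays alone, 1337 without the siNELF-B arrays, 292 after quantile normalization and 381 without the filter on low values. It fell to between 46 and 120 without any one siNELF-E or siControl array.

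In SHCBP1, a cytokinesis protein, 1 probe set was higher with siNELF-E while the gene fell. Probe set 3689898 read 9.65, 9.67 and 9.26 in the controls and 10.17, 10.31 and 10.24 with siNELF-E, whereas the other 15 tested probe sets changed by -3.55 to -2.11. Its relative change was 3.53 (SE 0.535, limma diffSplice adjusted p = 1.33e-05). MCM7, a subunit of the replicative helicase, had 1 such probe set, 3063723, which went from 5.01, 3.16 and 3.88 to 5.37, 6.25 and 6.75. The other 26 MCM7 probe sets changed by -2.87 to -0.38 (relative change 3.40, SE 0.456, adjusted p = 1.59e-07).

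In MX1 the lowest-numbered tested probe set changed much less than the gene. Probe set 3922120 read 6.21, 6.07 and 6.07 in the controls and 5.55, 5.53 and 5.68 with siNELF-E, while the median of the gene changed by -3.67 (relative change 3.39, limma diffSplice adjusted p = 3.51e-06). Probe sets that changed downward relative to their gene were in SPC24, a kinetochore subunit, whose probe set 3850667 went from 7.85, 7.54 and 7.62 to 1.81, 3.95 and 1.32, and IFI27, whose probe set 3549588 went from 7.91, 7.59 and 8.23 to 1.46, 2.44 and 2.87. Both genes also held probe sets that changed upward relative to the gene, SPC24 3850670 and 3850672 (2.62 and 2.77) and IFI27 3549578 and 3549579 (2.54 and 2.66), whose own levels changed by -0.24 to 0.36. The IFI27 probe set 3549588 was not tested without siControl replicate 3.

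The remaining upward cases were less steady. CEP85 probe set 2326429 (relative change 3.35) lost its call without siControl replicate 2 (limma diffSplice adjusted p = 0.051) or 3 (0.06), and H2BC15 probe set 2900079 (3.24) without siNELF-E replicate 3 (0.0548) or siControl replicate 1 (0.122). PLSCR1 probe set 2699768 (3.17) lost it without any one of siNELF-E replicates 1 and 2 and siControl replicates 1, 2 and 3 (0.15 to 0.266) and without the level filter (0.0714). Whether any of these mark another start site was not tested.

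**Figure D5:**
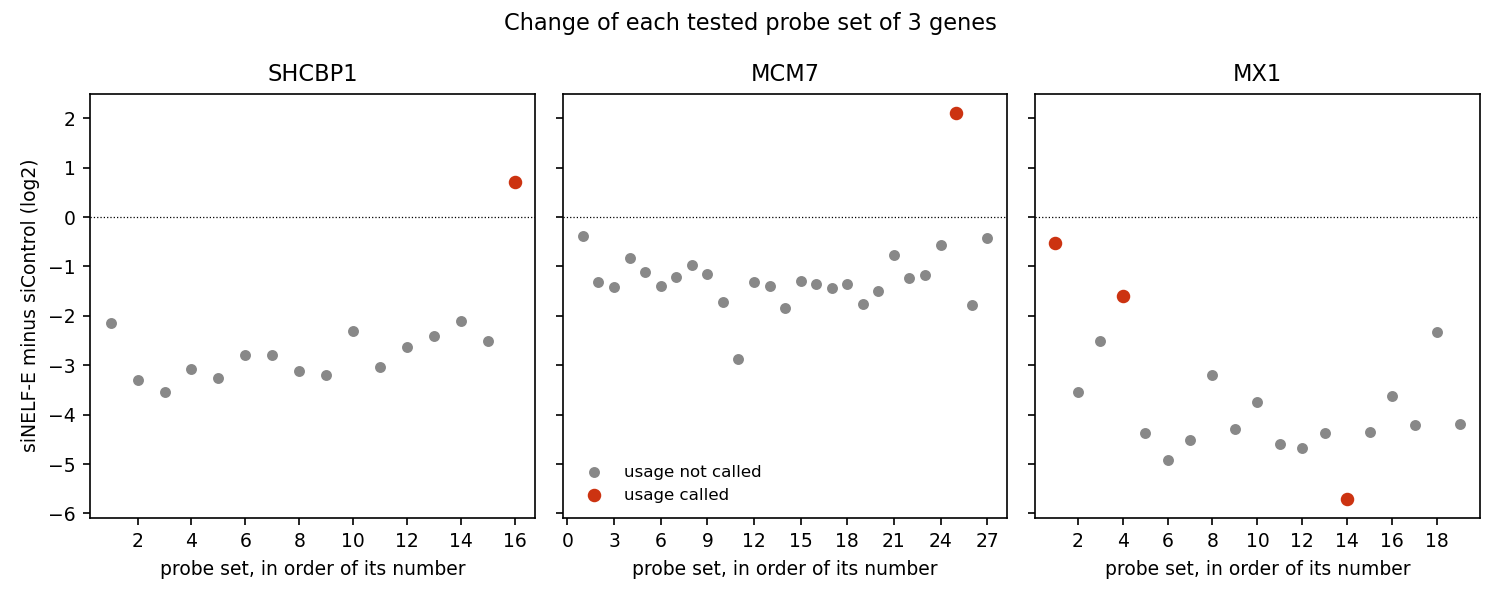
Change (siNELF-E minus siControl, log2, y axis) of each tested probe set of SHCBP1, MCM7 and MX1, ordered by probe set number (x axis). Red points changed relative to the gene by the test. In SHCBP1 probe set 3689898 lies at 0.71 while the others lie between -3.55 and -2.11.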

How the data were processed

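The deposited values are log2 RMA summaries of core exons made by the authors in ArrayAssist on hg18, per the labels' descriptions; its version is not stated there. They were used as deposited, 22011 transcript clusters and 287329 probe sets on 15 arrays each, and 0 columns lacked a sample. GEO's platform annotation pairs 14432 clusters with a single symbol and 2408 with more than 1, and leaves 5171 unnamed here.

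All 15 arrays of 5 groups were fitted in R 4.3.3 with limma 3.58.1 (lmFit, eBayes, Benjamini-Hochberg adjustment over all clusters), and tested on simulated data. A call needed an adjusted p below 0.05 and 1.5-fold. Symbols without a cluster used the median of their probe sets. Relative probe set change was tested with diffSplice in genes with at least 3 probe sets. No fold is given where both means lie below the 40th percentile. Promoters came from RefSeq (GRCh38.p14); tables were handled with data.table (1.17.8), Python 3.11.15 and pandas 2.3.3, and figures with matplotlib 3.10.9.

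Genes named were NELF subunits, neighbours, pausing factors and CDK inhibitors; the 15 highest and 15 lowest called clusters; up to 8 each way called against siControl, siNELF-A and siNELF-C; per list, up to 6 called genes and 2 bright uncalled ones; and up to 8 probe sets. Members and lists were chosen with earlier results of these data known. Replicate numbers were not taken to pair the samples. Deviations of same-numbered arrays correlated at 0.0623, -0.0017 and 0.1402, and those of different-numbered arrays at -0.1163 to 0.063. With 3 arrays per group these values cannot exclude a pairing. Alternatives covered scaling, filters, spread, arrays fitted and each replicate left out. The number of arrays limits the precision.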

Additional observations from a re-analysis of the deposited data

Results flagged for a closer look

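Among single-symbol genes above the level limit, 82 were lower and 102 higher with siNELF-E by limma than with siControl, siNELF-A and siNELF-C. The 8 of these named each way are given here with the smaller of the differences from siNELF-A and siNELF-C. The siNELF-B arrays took no part in the rule: their mean TNNC1 level, 3.58, lay below that of siNELF-E, 4.01, and their mean PCP4 level, 7.74, lay between siNELF-E and the controls. Their means of GPR158, 5.46, and ATP2A3, 6.65, also lay between those of siNELF-E and the controls. Lower with siNELF-E were TNNC1 (-2.44, against siNELF-C), PCP4 (-2.28, siNELF-C), CDC20 (-1.84, siNELF-C), SDC2 (-1.80, siNELF-C), H2AC21 (-1.53, siNELF-A), TK1 (-1.53, siNELF-A), GPR158 (-1.52, siNELF-C) and CDC6 (-1.48, siNELF-C). Higher were BCHE (2.36, against siNELF-A), SRARP (2.32, siNELF-A), CRISP3 (2.25, siNELF-A), SELENOP (2.04, siNELF-C), ATP2A3 (2.0, siNELF-C), ACKR2 (1.82, siNELF-C), GATM (1.80, siNELF-C) and EPHX2 (1.65, siNELF-A).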

How the results depend on the processing

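Of 266 named genes 0 turned from a call in one direction to the other in any setting run, though uncalled genes with changes near 0, FZR1, NBN and ZBTB12 among them, changed sign after quantile normalization. Quantile normalization gave 676 clusters higher than siControl, 1567 called against siNELF-A and 1718 against siNELF-C. Median centring gave 627 higher and 1449 against siNELF-A, and 75th percentile centring 750 higher, 1679 and 1801. The 6 arrays alone gave 2393 called, 640 higher and 1753 lower. The 12 arrays without siNELF-B gave 2348, 629 and 1719, with 2129 against siNELF-A and 2846 against siNELF-C. A 2-fold threshold left 724, and exon-level medians, chosen after seeing the data, gave 723 called, 162 higher and 561 lower. Leaving out 1 siNELF-E or siControl array gave 691 to 819 called, 166 to 198 higher and 516 to 653 lower, 503 at the lowest against siNELF-A and 540 against siNELF-C. Leaving out siNELF-B replicate 2 or 3, also chosen after seeing the data, gave 1884 and 2086 called, 509 and 542 higher, 1375 and 1544 lower, 1651 and 1851 against siNELF-A, and 2188 and 2467 against siNELF-C. Probe sets with changed usage numbered 381 without the level filter, 2784 with 6 arrays, 1337 with 12, and 46 to 120 without 1 array. With the replicate number as a block 1035 clusters were called, 264 higher and 771 lower, 1012 of them shared with the unblocked fit. Under the block 8 named genes lost their call. Whether the numbers pair the samples is not known. Between 28 and 34 named genes lost their call without 1 siNELF-E or siControl array. Dim clusters have compressed changes, and repeats of 1 harvest do not measure the spread between cultures.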

Other observations

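Of 14 DUSP and Sprouty genes, feedback inhibitors of growth factor signalling, limma called 3 lower (21.4%, against 4.04% of all clusters) and 1 higher (7.14%, against 1.44%). The higher count was 4 after quantile normalization or 75th percentile centring, 3 with median centring or without the siNELF-B arrays, and 0 to 1 without any one siNELF-E or siControl array, while 3 stayed the lower count in each. SPRY2, an inhibitor of receptor tyrosine kinase signalling, fell 2.69-fold, DUSP6, an ERK phosphatase, 2.19-fold and SPRED1 2.13-fold. DUSP10, a phosphatase of JNK and p38, rose 2.2-fold, a call lost without siNELF-E replicate 3 (limma adjusted p = 0.0703) or siControl replicate 1 (0.0621) or 2 (0.065).

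Among 31 TGF-beta genes limma called 2 lower and 2 higher, 6.45% each way, against 4.04% and 1.44% of all clusters. The higher count was 0 to 1 without any one siNELF-E or siControl array, 5 after quantile normalization or without the siNELF-B arrays and 6 with 75th percentile centring. The higher genes were BAMBI, a decoy receptor, at 0.93, whose call was lost without siNELF-E replicate 1 (limma adjusted p = 0.0515) or 3 (0.0575), and INHBB, an activin subunit, at 0.66, whose call was lost without siNELF-E replicate 2 or 3 or any one siControl replicate (0.0695 to 0.124). ID1, a BMP-induced inhibitor of helix-loop-helix factors, fell 2.49-fold and the co-receptor TGFBR3 2.97-fold. SAT1, which acetylates polyamines for export or breakdown, rose 2.96-fold, from 6.45, 6.32 and 6.53 to 7.80, 8.12 and 8.08. The arginine and lysine transporter SLC7A1 fell 2.28-fold and the glutamate transporter SLC1A1 2.68-fold, among 4 of 21 amino acid transporters called lower (19%, against 4.04% of all clusters). That count was 2 without siNELF-E replicate 1 or 2 or siControl replicate 1 or 3, as SLC36A4 and SLC43A2 lost their calls. LMNB2, lamin B2, fell 2.32-fold.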
